A study of Mus musculus with 12 samples.

Results

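The 76 genes described here encode proteins of the mitochondrial ribosome and were chosen by symbol: Mrpl or Mrps followed by a digit, 47 of the large subunit and 29 of the small subunit. They were taken from 18194 genes named on the arrays, and 156 of the 34958 probe sets that name 1 gene belong to them. Another 4 probe sets that name several genes were left out. Mrpl57 (older symbol Mrp63) and Mrpl11 were selected on these same data, because the effect of the knockout differed most between the regions for them among these genes. Their values in those comparisons are therefore given as a description, with no test.

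RNA was measured in caudal and rostral pieces of mouse cortex at embryonic day 14. The 4 groups were caudal cortex of AP2gamma knockout animals (KO; numbers 1, 2, 13), the same piece of wild-type animals (WT; 4, 6, 14), rostral KO cortex (7, 8, 15) and rostral WT cortex (10, 12, 16). The gene Tfap2c encodes AP2gamma, a transcription factor. The labels name no allele, promoter or Cre line, give each of the 12 arrays its own animal number, and do not say whether a caudal and a rostral piece came from the same embryo.

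The mitochondrial ribosome sits inside mitochondria and translates the few proteins that mitochondrial DNA encodes, all of them subunits of the respiratory chain and ATP synthase. Its RNA is made in the organelle, whereas its proteins are encoded in the nucleus, made in the cytosol and imported. The small subunit reads the mRNA and the large subunit joins the amino acids. The split used here follows the symbols, although structures of the mammalian ribosome place Mrps30 and Mrps18a in the large subunit and Mrps36 is known as a component of a dehydrogenase complex.

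The promoters of Mrpl57 and Mrpl11 are shown because the regional differences were found for these genes, and those of Mrps11, Mrpl27 and Mrps12 because these genes followed the mean of the family most closely. Each runs from 250 bases before to 50 bases after the start site of its promoter entry, 5′ to 3′ on the gene's strand, from RefSeq on GRCm38.p6. For Mrpl57, Mrpl27 and Mrpl11 that site lies downstream of the annotated gene start, so some bases before it lie inside the gene. The shift is largest for Mrpl11, whose gene start is at 4962152. Capitals mark matches, on either strand, to letters known from the motifs of GABP and other ETS factors (CCGGAAG), YY1 (AANATGGC) and Sp1 (GGGCGG). Matches to NRF1 (GCATGCGC) and to the E-box of Myc (CACGTG) were also searched.
Mrpl57 (chr14:57825989-57826288, plus strand): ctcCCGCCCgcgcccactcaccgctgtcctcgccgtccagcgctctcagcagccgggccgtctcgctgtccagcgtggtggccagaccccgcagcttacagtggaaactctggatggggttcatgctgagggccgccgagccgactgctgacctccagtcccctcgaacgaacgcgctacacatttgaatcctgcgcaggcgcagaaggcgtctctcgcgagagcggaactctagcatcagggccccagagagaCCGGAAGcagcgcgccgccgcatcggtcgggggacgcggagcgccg
Mrpl11 (chr19:4962056-4962355, plus strand): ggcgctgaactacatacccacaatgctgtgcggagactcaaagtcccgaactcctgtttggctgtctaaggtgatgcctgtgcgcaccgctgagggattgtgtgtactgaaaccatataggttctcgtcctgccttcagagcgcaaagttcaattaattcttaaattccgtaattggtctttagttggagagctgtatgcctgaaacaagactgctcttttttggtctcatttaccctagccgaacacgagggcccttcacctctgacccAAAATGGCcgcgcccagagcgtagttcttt
Mrps11 (chr7:78782881-78783180, plus strand): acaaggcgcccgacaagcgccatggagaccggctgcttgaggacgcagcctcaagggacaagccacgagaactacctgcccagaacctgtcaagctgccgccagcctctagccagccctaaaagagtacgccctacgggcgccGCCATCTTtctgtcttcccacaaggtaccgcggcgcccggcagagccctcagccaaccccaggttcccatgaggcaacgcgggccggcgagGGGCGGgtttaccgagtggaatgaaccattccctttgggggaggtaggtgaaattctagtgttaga
Mrpl27 (chr11:94653541-94653840, plus strand): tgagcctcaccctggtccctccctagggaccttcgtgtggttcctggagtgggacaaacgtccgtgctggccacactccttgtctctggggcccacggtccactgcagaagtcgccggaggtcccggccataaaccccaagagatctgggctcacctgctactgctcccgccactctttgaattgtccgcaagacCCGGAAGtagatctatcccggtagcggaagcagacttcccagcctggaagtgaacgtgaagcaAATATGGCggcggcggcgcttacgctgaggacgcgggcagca
Mrps12 (chr7:28741772-28742071, minus strand): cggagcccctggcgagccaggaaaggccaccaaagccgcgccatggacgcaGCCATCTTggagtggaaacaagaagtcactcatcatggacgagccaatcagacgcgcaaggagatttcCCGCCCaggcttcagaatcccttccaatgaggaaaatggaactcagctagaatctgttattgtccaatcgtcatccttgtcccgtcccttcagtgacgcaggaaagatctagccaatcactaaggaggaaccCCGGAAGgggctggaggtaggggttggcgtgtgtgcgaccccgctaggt

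The ETS letters stood near the start of Mrpl57, Mrpl27 and Mrps12, and the YY1 letters in all of these promoters except that of Mrpl57. A promoter was at hand for 67 of the 76 genes. The ETS letters were in 37.3% of them, against 20.2% of the 9563 tested genes with a promoter, and the YY1 letters in 31.3% against 10.1%. NRF1 letters were in 11.9% against 6.17%, while the E-box (7.46% against 11.8%) and the Sp1 letters (50.7% against 70.0%) were in smaller shares. The median GC content was 58.0% against 61.3%. The large and small subunit genes held the ETS letters in 14 of 41 and 11 of 26 promoters, and the YY1 letters in 14 and 7. NRF1 letters were in 7 of the 41 large (17.1%) and 1 of the 26 small subunit promoters (3.85%). Sp1 letters were in 17 (41.5%) and 17 (65.4%), and the E-box in 4 and 1. A match is a description of the letters and not evidence of a bound factor.

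The deposited values are log2 signals. A gene was represented by its probe set of highest mean and was tested where that value exceeded 5.21, the median of the table, on at least 3 of the 12 arrays. All 76 genes passed, and all 76 exceeded 5.21 on every array, which holds for 84.83% of the 11785 genes tested. Their mean values lay between 7.34 and 10.98. The median SD within groups was 0.13 for the 76 genes and 0.20 for all genes. Tfap2c averaged 7.67 ± 0.21 in caudal KO, 8.89 ± 0.28 in caudal WT, 8.28 ± 0.30 in rostral KO and 8.87 ± 0.28 in rostral WT cortex (SD, n = 3 each). KO minus WT was -0.91 ± 0.14 over both regions (SE; limma, adjusted p = 0.038). It was -1.22 ± 0.19 in caudal (limma, adjusted p = 0.084) and -0.59 ± 0.19 in rostral cortex (limma, adjusted p = 0.63), under 0.05 in neither. In bulk tissue, fewer cells of a type and less RNA per cell cannot be told apart.

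Averaged over the regions, most of the 76 genes were slightly lower in KO cortex, and none passed. With limma and a Benjamini-Hochberg adjusted p under 0.05 as the threshold, 4 of 11785 genes were called (0.0339%), all lower. Of the large subunit genes 36 of 47 had a value below 0, with a median of -0.07, and of the small subunit genes 22 of 29, with a median of -0.05. Over all genes the median was -0.01 and 53.1% were below 0. The sizes were small, with 48 of the 76 genes under 0.1 in either direction. The lowest were Mrps30 (-0.23 ± 0.08 SE), Mrpl40 (-0.22 ± 0.17) and Mrpl37 (-0.20), and the highest Mrpl48 (0.14, and -0.18 on its other probe set), Mrpl9 (0.14) and Mrpl52 (0.08). The smallest adjusted p was 0.53, for Mrpl17 (-0.20 ± 0.07). Without adjustment, p was under 0.05 for 3 of the 76 genes and 887 of all genes. All 5 tested markers of the cortical hem, of 7 listed, were lower in KO cortex as well (median -0.60), and none passed. Their mean level lay between 3.95 and 6.17 in caudal KO, 5.02 and 6.53 in caudal WT, 4.75 and 5.94 in rostral KO and 5.91 and 6.20 in rostral WT cortex. Eomes, a transcription factor of basal progenitors, was among the genes called lower (-0.56 ± 0.08, limma, adjusted p = 0.038). It is 1 of 7 tested dorsal cortex markers, of which 5 were lower and 2 higher over both regions (median -0.09). In rostral cortex 3 of these 7 were lower and 4 higher in KO. The part of these cells in the ribosomal values was not tested.

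Taken by region, the median KO difference was -0.03 for large and -0.02 for small subunit genes in caudal cortex, against -0.00 over all genes. In rostral cortex it was -0.09 and -0.08, against -0.02 over all genes. None of the 76 genes passed in either region, nor did any other gene (0% of 11785 in caudal and 0% in rostral cortex). Without adjustment, p was under 0.05 for 3 of the 76 genes and 478 of all genes in caudal cortex, and 9 and 789 in rostral cortex. The counts for the 76 genes include Mrpl57 and Mrpl11, which were selected on these data. KO values were below WT in both regions for 40 of the 76 genes (52.6%), against 30.8% of all genes. The 2 subunits did not part in this count, with 26 of 47 large and 14 of 29 small subunit genes.

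**Figure D1:**
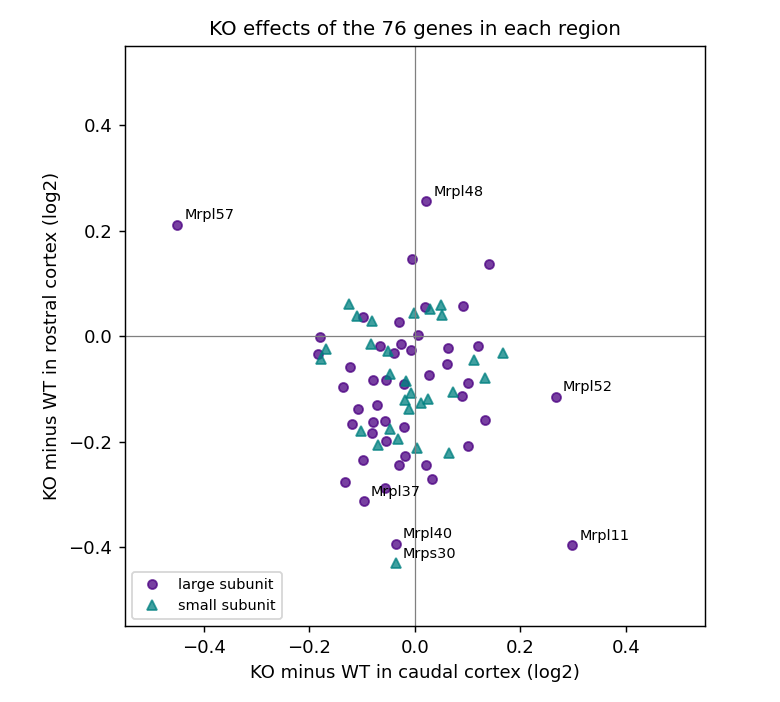
Log2 difference of KO minus WT in caudal cortex (horizontal axis) and rostral cortex (vertical axis) for the 76 genes, circles for large and triangles for small subunit genes. Most points lie below the horizontal line, and Mrpl57 (-0.45 and 0.21) and Mrpl11 (0.30 and -0.40) lie apart from the rest in opposite corners.

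These medians moved with single arrays, and both caudal ones were above 0 without caudal KO animal 13 (0.033 for large and 0.031 for small subunit genes). In terms of log2 value minus the gene's mean over the 12 arrays, the large subunit genes had medians of 0.06, 0.07 and -0.11 on caudal KO arrays (1, 2, 13), and of 0.03, 0.08 and -0.04 on caudal WT arrays (4, 6, 14). The rostral medians were 0.02, -0.05 and -0.16 for KO (7, 8, 15), and 0.00, 0.09 and 0.00 for WT (10, 12, 16). The KO and WT arrays thus overlapped in both regions. Rostral KO animal 15 held the lowest of the 12 values for 31 of the 76 genes (40.8%), against 14.1% of all genes. Caudal KO animal 13 held it for 14 (18.4%), against 16.7% of all genes. Rostral WT animal 12 held the highest value for 25 (32.9%), against 12.6% of all genes.

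Rostral KO animal 15 also differed from the other arrays in its markers. The 4 tested meninges markers had a mean of 8.18 there, against 4.96 to 5.97 on the other 11 arrays, the vascular markers had a mean of 7.21, against 6.46 to 6.89, and the 6 tested ganglionic eminence markers a mean of 8.80, against 6.49 to 8.25. The part of these cells in the low ribosomal values was not tested. In animals 1 to 12 alone, the rostral KO difference had a median of -0.07 over large and -0.04 over small subunit genes. In animals 13 to 16 alone, with 1 array a group, it was -0.15 for both.

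**Figure D2:**
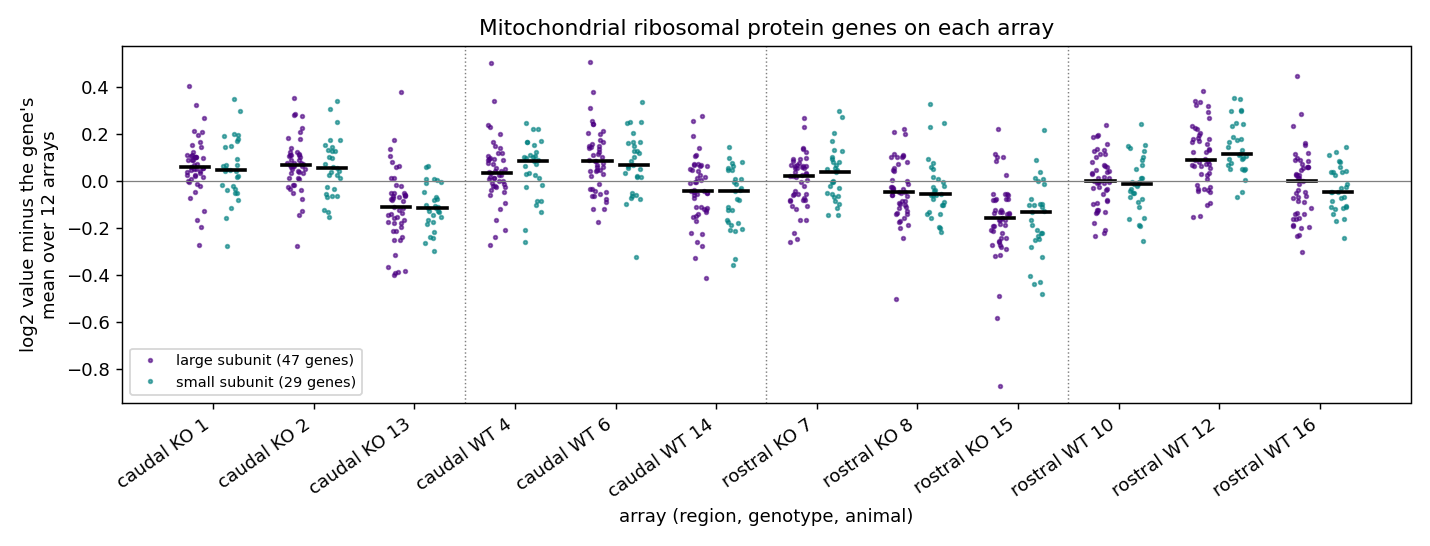
Log2 value minus the gene's mean over 12 arrays (vertical axis) for 47 large and 29 small subunit genes on each array (horizontal axis), 1 point a gene, with black bars at the medians. The medians are lowest in rostral KO animal 15 and caudal KO animal 13, and large and small subunit genes shift alike.

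The genes of the family followed each other over the arrays to different degrees. The correlation of a gene with the mean of the other 75, over 12 arrays that share their normalisation, had a median of 0.57 and exceeded 0.5 for 47 genes. It was 0.59 in the median for large and 0.55 for small subunit genes. The highest were Mrps11 (0.92), Mrpl27 (0.88) and Mrps12 (0.87), the last known for its place at the decoding centre. The lowest were Mrpl39 (-0.16), Mrps18a (-0.10) and Mrps28 (-0.03). Mrpl57 stood at -0.00.

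Mrpl57, a protein of the large subunit, lies at chr14:57826228-57829087 (GRCm38.p6) and overlaps Ska3 by 64 bases. Caudal KO arrays (animals 1, 2, 13) read 9.83, 9.75 and 9.85 on the log2 scale, against 10.37, 10.28 and 10.13 on caudal WT arrays (animals 4, 6, 14). Rostral KO arrays (7, 8, 15) read 10.10, 10.13 and 10.14, against 9.82, 10.05 and 9.86 on rostral WT arrays (10, 12, 16). KO lay below WT caudally and above WT rostrally, with no overlap in either region. The difference was -0.45 caudally and 0.21 rostrally, and the difference between these was -0.66 ± 0.12 (SE). It was -0.71 within animals 1 to 12 and -0.56 within animals 13 to 16, the latter with 1 array a group. The gene was selected on these same arrays, so the 2 values are no support for each other.

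Mrpl11, whose bacterial counterpart is part of the site that binds translation factors, lies at chr19:4962152-4966995. Caudal KO arrays (animals 1, 2, 13) read 10.48, 10.30 and 10.18 on the log2 scale, against 10.04, 10.00 and 10.03 on caudal WT arrays (animals 4, 6, 14). Rostral KO arrays (7, 8, 15) read 9.82, 9.57 and 9.95, against 10.02, 10.41 and 10.10 on rostral WT arrays (10, 12, 16). KO lay above WT caudally and below WT rostrally, the reverse of Mrpl57 and again with no overlap. The difference was 0.30 caudally and -0.40 rostrally, 0.69 ± 0.17 between these, with 0.89 within animals 1 to 12 and 0.30 within animals 13 to 16. Mrpl11 too was selected on these same arrays, so the values within the sets are no support for the difference.

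The other probe sets of both genes gave differing values. The second probe set of Mrpl57, with a mean of 7.12, differed by 0.06 caudally and 0.16 rostrally, or -0.10 between the regions. For Mrpl11, the probe set with a mean of 9.96 gave 0.03 and -0.05, or 0.07 between the regions. The one with a mean of 7.95 gave 0.27 ± 0.23 (SE) and -0.08 ± 0.23, or 0.35 ± 0.33 between the regions. Its KO and WT arrays overlapped in both regions. A dim one with a mean of 4.97 gave -0.26 and 0.46, or -0.72, which is as large as 0.69 with the opposite sign. Which transcripts each probe set detects was not tested.

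**Figure D3:**
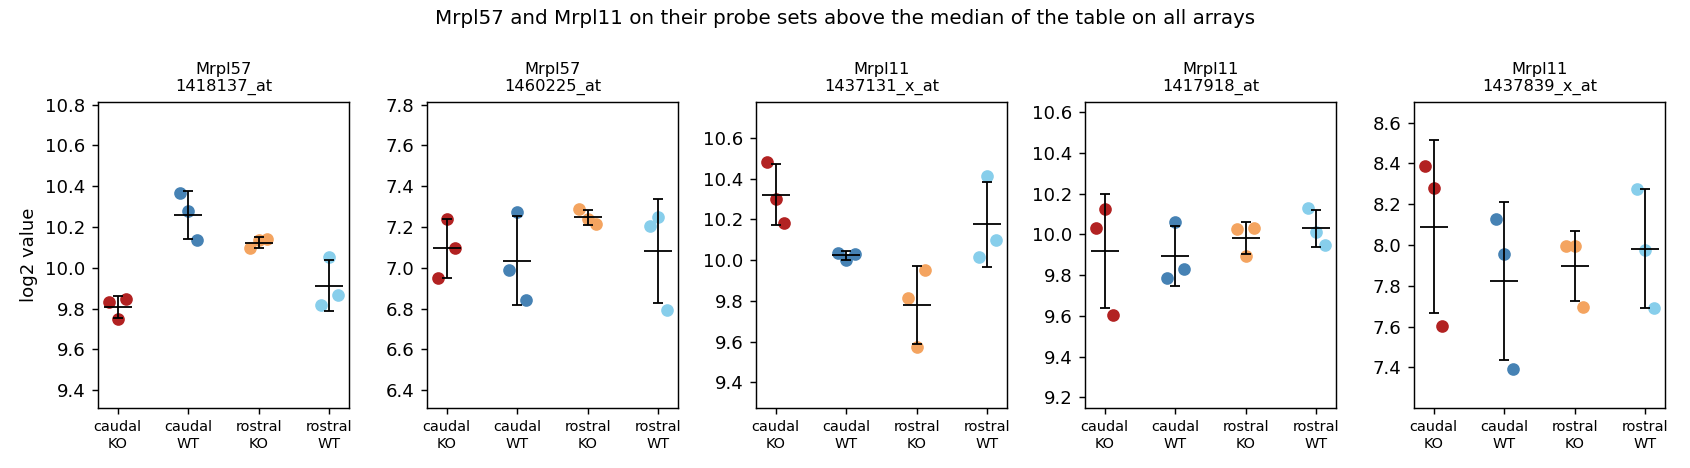
Log2 values of Mrpl57 on 2 and of Mrpl11 on 3 probe sets in the 4 groups, 1 point an array, with the mean and SD (n = 3). Every vertical axis spans the same range; within each region, KO and WT arrays do not overlap on the first probe set of each gene and overlap on the second.

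Across the family, the difference of the KO effects was below 0 for 23 and above 0 for 53 of the 76 genes, with a median of 0.08 for large and 0.10 for small subunit genes, against 0.02 over all genes. No other gene of the family was as far below 0 as 0.5 times the size of Mrpl57, a distance that 9.70% of all genes reached. Only Mrps30 (0.39), Mrpl52 (0.38) and Mrpl40 (0.36) were as far above 0 as 0.5 times the size of Mrpl11, against 8.69% of all genes. The median size was 0.13 for the family and 0.15 for all genes. No gene passed (0% of 11785), with 5 of the 76 genes (6.58%) and 358 of all genes (3.04%) at an unadjusted p under 0.05. These 5 include Mrpl57 and Mrpl11, which were selected on this difference, so the count is no result about the family. KO and WT arrays were apart in opposite directions in the regions for Mrpl11 and Mrpl57 alone, as the choice of these genes fixed, against 0.246% of all genes. They were apart in the same direction in both regions for 0 of the 76 genes, against 1.18% of all genes.

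Mrps30 and Mrpl40 have 1 tested probe set each. Mrps30 read 8.40, 8.47 and 8.11 on rostral KO arrays (7, 8, 15), against 8.79, 8.90 and 8.59 on rostral WT arrays (10, 12, 16), which did not overlap. Mrpl40 read 8.71, 8.55 and 7.57 on these KO arrays, against 8.64, 8.77 and 8.60 on the WT arrays. The low value was that of rostral KO animal 15, and without animals 15 and 13 the difference over both regions was 0.047. The other probe sets of Mrpl52 gave -0.07, 0.05 and 0.24 for the difference of the KO effects.

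By the correlation of the 4 group means, the genes of the family most like Mrpl57 were Mrps16 (0.99), Mrps23 (0.83) and Mrpl35 (0.81), whose differences of the KO effects were -0.19, -0.14 and -0.15. Those most like Mrpl11 were Mrpl22 (0.99), Mrpl14 (0.98) and Mrpl18 (0.94), with differences of 0.29, 0.19 and 0.20. With only 4 points, such correlations describe shape and not size.

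Between the regions, Mrps28 was the 1 gene of the family that passed when the genotypes were averaged, and it fell in caudal cortex. Mrps28 encodes a protein of the small subunit and lies at chr3:8802146-8923857. Caudal arrays read 8.60, 8.82 and 8.70 for KO (animals 1, 2, 13) and 8.86, 8.56 and 8.55 for WT (4, 6, 14). Rostral arrays read 9.15, 9.21 and 8.97 for KO (7, 8, 15) and 9.03, 9.18 and 8.94 for WT (10, 12, 16). All 6 caudal values lay below all 6 rostral ones. The difference, caudal minus rostral, was -0.40 ± 0.08 (SE; limma, adjusted p = 0.013), with -0.41 in KO and -0.40 in WT cortex. Without animals 6 and 12 it was -0.34 and did not pass (adjusted p = 0.073). Only 1 probe set measures this gene. The gene overlaps the pseudogene Gm15466 by 2805 bases and the noncoding RNA genes Gm52600 and Gm52601 by 724 and 6656 bases. Which transcripts the probe set detects was not tested. All 6 tested ganglionic eminence markers, of 8 listed, were also lower in caudal cortex (median -0.90), and Dlx1 (-1.16, adjusted p = 0.013), Dlx2 (-1.06, adjusted p = 0.0039) and Dlx5 (-0.75, adjusted p = 0.043; limma), transcription factors of inhibitory neurons, passed. Their mean level lay between 6.49 and 7.35 in caudal KO, 6.63 and 7.42 in caudal WT, 7.61 and 8.80 in rostral KO and 7.63 and 8.25 in rostral WT cortex. The defining marker Nkx2-1 did not pass the filter. Of 7 tested dorsal cortex markers 4 were lower and 3 higher in caudal cortex (median -0.06). Pax6 (-0.42, adjusted p = 0.0017) and Tbr1 (-0.63, adjusted p = 0.013; limma) of this list passed. Of 9 tested markers of dividing progenitors 8 were lower (median -0.09), and none passed. The part of any of these cells in the result for Mrps28 was not tested.

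This 1 gene of 76 stands beside 526 of 11785 genes called in the same comparison (4.46%), 148 higher and 378 lower in caudal cortex. The unadjusted p was under 0.05 for 8 of the 76 genes and 2042 of all genes. The median regional difference was 0.04 for large and 0.02 for small subunit genes, against -0.02 over all genes. After Mrps28 the lowest were Mrpl54 (-0.20) and Mrpl13 (-0.19), and the highest Mrps9 (0.22), Mrps34 (0.21) and Mrpl38 (0.21), none of which passed. Caudal and rostral arrays were apart in the same direction in both genotypes for Mrps28 and Mrpl39, against 4.79% of all genes. Mrpl39 differed by 0.13, and by 0.04 on its other probe set.

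Mrpl13 was the 1 gene called in WT cortex alone, where 111 of 11785 genes were called (0.942%). It read 10.82, 10.87 and 10.83 on caudal WT arrays (4, 6, 14), against 11.22, 11.11 and 11.22 on rostral WT arrays (10, 12, 16), a difference of -0.34 ± 0.07 (limma, adjusted p = 0.047). In KO cortex the caudal arrays (1, 2, 13) read 11.07, 10.84 and 10.91, against 11.05, 10.97 and 10.90 on the rostral ones (7, 8, 15), and these overlapped. The WT call was kept in 9 of 27 alternatives, and the other 2 probe sets gave -0.17 and -0.06 in WT cortex.

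**Figure D4:**
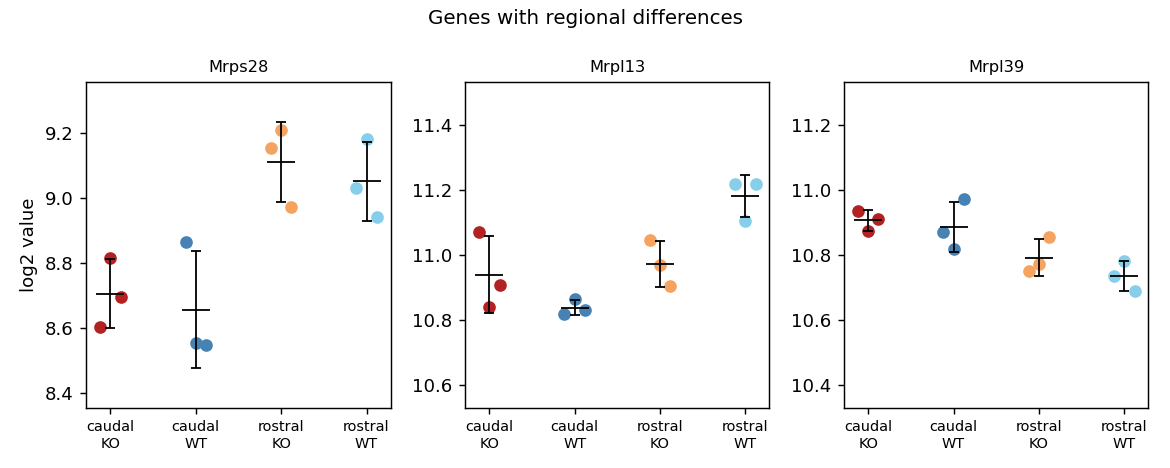
Log2 values of Mrps28, Mrpl13 and Mrpl39 in the 4 groups, 1 point an array, with the mean and SD (n = 3), each axis spanning the same range. Mrps28 is lower in caudal than in rostral cortex in both genotypes, and Mrpl13 is lower in caudal WT than in rostral WT cortex, while its KO arrays overlap.

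In KO cortex 112 genes were called between the regions (0.95%) and none of the 76, with an unadjusted p under 0.05 for 4 of the 76 and 1553 of all genes. These 4 include the selected genes Mrpl57 and Mrpl11. The median was 0.08 for large and for small subunit genes, against -0.01 over all genes. In WT cortex it was -0.00 for large and 0.01 for small subunit genes, against -0.02 over all genes. In KO cortex Mrps28 (-0.41), Mrpl57 (-0.31) and Mrps36 (-0.24) were lowest, and Mrpl11 (0.54), Mrpl52 (0.36) and Mrps31 (0.25) highest. In WT cortex Mrpl34 (-0.27) followed Mrps28 and Mrpl13, and Mrpl57 (0.35), Mrpl3 (0.24) and Mrpl38 (0.23) were highest.

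Of the 76 genes, 34 had several tested probe sets. These shared a sign on all of them for 8 genes in the KO difference over both regions, 15 in caudal and 12 in rostral cortex. For the regional difference the numbers were 14 over both genotypes, 12 in WT and 13 in KO cortex, and for the difference of the KO effects 11. With every probe set tested on its own, a second probe set of Mrps6 also passed between the regions (0.32, limma, adjusted p = 0.042), while its brighter one differed by 0.10.

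Other genes of mitochondrial translation, taken from lists, gave no call in any comparison, and further lists gave few. Of 75 tested nuclear-encoded respiratory chain subunits, 61 were lower in rostral KO cortex (median -0.10) and 30 in caudal KO cortex (median 0.01), and none passed in any comparison. Their difference of the KO effects had a median of 0.09, with 64 of 75 above 0. Among 15 mitochondrial tRNA synthetases 13 were lower in KO cortex over both regions (median -0.06) and none passed. Their median of log2 value minus the gene's mean was -0.31 on rostral KO animal 15, against 0.05 and -0.02 on rostral KO animals 7 and 8. KO and WT arrays overlapped in this median in both regions. Dap3, a small subunit protein under another name, differed by -0.35 ± 0.09 in rostral KO cortex (limma, adjusted p = 0.59). The 42 cytosolic ribosomal proteins had a median of 0.01 over both regions, and Rps9 was called between regions (0.15, limma, adjusted p = 0.034). Assembly factors (23 tested), translation factors (14) and genes of mitochondrial DNA upkeep (11) gave no call. Among 9 regulators Myc, a transcription factor known for promoting growth, fell in caudal cortex by 0.65 (SE 0.08, limma, adjusted p = 0.00063). ND5 was the 1 mitochondrially encoded gene tested and differed by 0.37 ± 0.09 in rostral KO cortex (limma, adjusted p = 0.55).

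**Figure D5:**
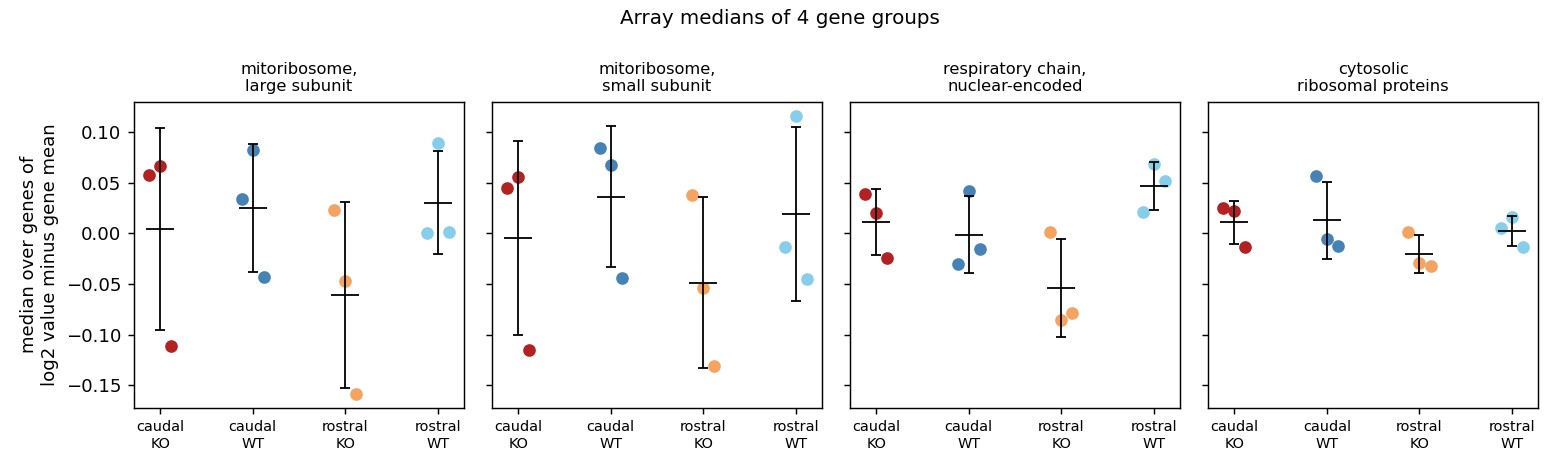
Median over genes of log2 value minus the gene's mean (vertical axis) for 4 gene groups, 1 point an array in each of the 4 groups of samples, with the mean and SD (n = 3). Rostral KO animals 8 and 15 are lowest for the respiratory chain genes, and the ribosomal protein genes of mitochondria have KO and WT arrays that overlap.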

How the data were processed

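RNA from 12 arrays was analysed. Per the labels' protocols, total RNA was extracted with a column kit and DNase, and 400 ng was amplified and biotin labelled. The authors deposited log2 values for 45101 probe sets, normalised between arrays by a method not given in the sources used here. Array medians lay between 5.21 and 5.22. The platform annotation named 1 gene for 34958 probe sets, several for 932 and none for 9211.

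All 12 arrays entered 1 fit in limma 3.58.1 (R 4.3.3) with 1 mean a group, 8 residual degrees of freedom and trended empirical Bayes moderation (prior degrees of freedom 5.37). P-values of the 7 comparisons were adjusted by Benjamini-Hochberg over 11785 genes, and the fit was tested on simulated data. Each array is a different animal by its number. With 3 arrays a group the number of arrays limits the precision. Named genes were Mrpl57, Mrpl11, the 3 extremes each way, calls, genes whose groups do not overlap, the extremes of correlation, and list members past the threshold or of smallest p. The members and lists were chosen with earlier results of these data known. Alternatives were quantile normalisation, median centring, a floor, 2 filters, other treatment of probe sets, moderation, array weights, blocks, and sets of arrays left out.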

Additional observations from a re-analysis of the deposited data

Results flagged for a closer look

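For Mrpl11 the difference of the KO effects was 0.69, since all KO arrays lay above all WT arrays in caudal cortex (0.30) and below them in rostral cortex (-0.40). For Mrpl57 it was -0.66, with KO arrays below WT in caudal cortex (-0.45) and above WT in rostral cortex (0.21). These opposite directions brought both genes to attention. The difference was not tested here, because the genes were selected on it. No test for an outlying array was made within groups of 3. With 1 array left out in turn, the difference ranged from 0.58 to 0.78 for Mrpl11 and from -0.73 to -0.61 for Mrpl57. These are the same arrays that the genes were selected on, so this range is no support for the difference. With the mean of a gene's probe sets, the difference was 0.099 for Mrpl11 and -0.38 for Mrpl57.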

How the results depend on the processing

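The labels pair no arrays, because no animal number occurs in more than 1 group, and the number pairs used as a random block are an assumed pairing (correlation 0.26). Over 27 alternatives, the medians of the subunit genes moved by less than the SD between arrays within groups (0.079 for large, 0.085 for small), with 1 exception. Many of these medians are smaller than this SD, so a median could vanish or turn and still count as kept. The exception was the small subunit median of the difference of the KO effects, which ranged from 0.010 to 0.15 without 1 array. It was lowest without rostral WT animal 12 and also low without rostral KO animal 15 (0.014). Without 1 array, the caudal KO medians ranged from -0.061 to 0.033 (large) and -0.053 to 0.031 (small), the rostral ones from -0.15 to -0.075 and -0.10 to -0.019, and those over both regions from -0.093 to -0.032 and -0.088 to -0.021. The regional median over both genotypes ranged from 0.014 to 0.067 (large) and -0.0040 to 0.052 (small), and in WT from -0.043 to 0.020 and -0.055 to 0.061. The sign thus turned for the caudal KO medians (without caudal KO animal 13), the small subunit median over both genotypes (without caudal KO animal 1 or rostral KO animal 15) and both WT medians (large without caudal WT animal 14 or rostral WT animal 10 or 12, small without caudal WT animal 6 or rostral WT animal 10 or 16). The caudal KO medians or those in WT also turned with array weights, median centring or mean probe sets, and without animals 13 to 16 or 15 and 13. No gene of the family passed in the KO differences or their difference under any alternative. Averaged over regions, 4 genes passed in all, against 2 with a floor, 2 without trend, 10 with array weights, 20 with animals 13 to 16 as an additive block, 1 with number pairs as a random block, 1 without animals 6 and 12, 1 without animals 13 to 16 and 1 to 4 without 1 array. Without rostral KO animal 15 and caudal KO animal 13, a setting chosen after seeing the data, it was 2. In caudal cortex 4 genes passed with the additive block and 0 to 1 without 1 array, and in rostral cortex 4 with a floor, 2 with array weights and 0 to 1 without 1 array. Between the regions 526 genes passed, against 926 with the additive block, 946 with number pairs and 332 to 560 without 1 array. Of the family 2 passed with every probe set on its own, with array weights and with either block, 0 without animals 6 and 12 and 1 to 2 without 1 array. In WT 111 genes passed, against 69 without trend, 257 with the additive block, 320 with number pairs, 23 without animals 6 and 12 and 27 to 134 without 1 array. Mrpl13 there was the 1 gene of the family, against 2 genes with either block, 0 with no filter, mean probe sets, every probe set, no trend or array weights, 0 without animals 6 and 12, 13 to 16, or 15 and 13, and 0 to 1 without 1 array. In KO 112 genes passed, against 56 without trend, 637 with array weights, 342 with the additive block, 385 with number pairs, 39 without animals 13 to 16, 15 without animals 15 and 13 and 20 to 145 without 1 array. Of the family 4 passed with array weights, 1 with the additive block, 4 with number pairs and 0 to 1 without 1 array. The genes past the threshold with number pairs were Mrpl13 and Mrps28 over both genotypes, Mrpl13 and Mrpl57 in WT, and Mrpl11, Mrpl52, Mrpl57 and Mrps28 in KO. Mrpl57 and Mrpl11 were selected on these same arrays. Their passing in this or another alternative is therefore no support for their differences. With the additive block 1 gene passed in the difference of the KO effects. The cause of these shifts was not tested.

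Directions turned for genes near 0 or with probe sets that differ. With the mean of a gene's probe sets, the KO difference over both regions was -0.021 for Mrpl48, 0.033 for Mrpl11 and 0.045 for Mrpl13. With the mean of a gene's probe sets, the KO difference in caudal cortex was 0.067 for Mrpl3 and -0.012 for Mrpl39. With the mean of a gene's probe sets, the KO difference in rostral cortex was -0.028 for Mrpl48 and 0.047 for Mrpl13. With the mean of a gene's probe sets, the regional difference over both genotypes was -0.042 for Mrpl57. With the mean of a gene's probe sets, the regional difference in WT was -0.038 for Mrpl38 and -0.045 for Mrpl3. With the mean of a gene's probe sets, the difference of the KO effects was 0.015 for Mrpl48 and -0.0026 for Mrpl13. Without animals 6 and 12, the KO difference over both regions was 0.0043 for Mrpl11. Without animals 6 and 12, the KO difference in caudal cortex was -0.00092 for Mrps28 and -0.014 for Mrpl39. Without animals 13 to 16, the KO difference over both regions was 0.032 for Mrpl40. Without animals 13 to 16, the difference of the KO effects was 0.058 for Mrpl39. Without animals 15 and 13, the KO difference over both regions was 0.047 for Mrpl40. Without animals 15 and 13, the KO difference in caudal cortex was 0.012 for Mrpl3. Leaving out 1 array, the KO difference over both regions ranged from -0.17 to 0.23 for Mrpl48 and -0.092 to 0.010 for Mrpl11. Leaving out 1 array, the KO difference in caudal cortex ranged from -0.36 to 0.012 for Mrpl3, -0.0059 to 0.15 for Mrps28 and -0.014 to 0.062 for Mrpl39. Leaving out 1 array, the KO difference in rostral cortex ranged from -0.28 to 0.30 for Mrpl48. Leaving out 1 array, the regional difference over both genotypes ranged from -0.0100 to 0.052 for Mrpl57. Leaving out 1 array, the regional difference in KO ranged from -0.099 to 0.016 for Mrpl13. Leaving out 1 array, the difference of the KO effects ranged from -0.34 to 0.23 for Mrpl48, -0.080 to 0.094 for Mrps28 and -0.070 to 0.0058 for Mrpl39. For Mrpl48 the other of 2 probe sets has the higher mean without rostral KO animal 8 or 15, so that the value is that of another probe set.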
